A study of Mus musculus with 18 samples.

Results

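The comparison described here is that of ventricles lacking the gene Cops8 in their cardiomyocytes with ventricles that keep it, at 3 weeks of age. The members are 6 of the 18 arrays of the series, chosen by their sample titles: 3 control hearts (CTL) and 3 homozygous cardiac knockout hearts (Hom-CKO), each from a different FVB/N inbred mouse and each hybridized alone to a 1-color CodeLink Whole Mouse Genome array. CTL mice were Csn8flox/flox::Myh6-CreNTG, with both Cops8 alleles floxed at exons 4 to 6 and no Cre. Their littermates, the Hom-CKO mice, were Csn8flox/flox::Myh6-CreTG, in which the Myh6 promoter drives Cre in cardiomyocytes, so other cells of the ventricle keep the gene. One more group at 3 weeks, Het-CKO (Csn8flox/+::Myh6-CreTG), carries the same Cre with 1 floxed allele, and its 3 hearts are given beside the named genes because CTL hearts have no Cre. The 3 CTL and 3 Hom-CKO hearts at 2 weeks serve only to ask whether a difference changed with age.

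CSN8, the protein that Cops8 encodes, is the smallest subunit of the COP9 signalosome (CSN), a complex that takes the small ubiquitin relative NEDD8 off the cullins of cullin-RING ubiquitin ligases (CRLs). Cycles of NEDD8 attachment and removal let a CRL exchange its substrate receptor, the subunit that picks the protein to be ubiquitinated, and CRLs in turn feed proteins to the proteasome. A cardiomyocyte hardly divides and depends on this system to clear damaged contractile and mitochondrial proteins. The comparison asks which transcripts of the ventricle differ once CSN8 has been lost from cardiomyocytes.

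Levels are given as array signal divided by that of the median probe, so that the median probe reads 1, and values under a floor of 0.318 were set to it. A level is comparable between hearts for the same probe, not between probes. CTL arrays at 3 weeks were dimmer than Hom-CKO arrays, with median raw intensities of 27.3 to 32.01 against 36.7 to 40.4 and 30.3% to 34.9% against 25.8% to 28.3% of probes near background. Het-CKO arrays lay between or beside them at 33.2 to 37.2. Quantile normalization, which gives every array the same distribution of values, was therefore set beside division by the array median. Among the 6652 probes with the highest levels, the median log2 fold change was 0.01 with the former and -0.25 with the latter, and in as many of the dimmest it was 0 and 0.02. Which of the scalings is right for the bright probes cannot be told from these arrays. Xist, which only female cells express, stood at the floor in replicate 2 of the CTL and of the Hom-CKO hearts and in all 3 Het-CKO hearts. Read by Xist, the Het-CKO group also differs from the others in sex, whereas the methods state that every group held both sexes. The part of brightness and sex in the differences below was not tested beyond the alternatives given with them.

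The targeted gene itself was measured by 2 probes. The brighter one read 32.97, 31.3 and 30.8 in the CTL hearts, 35.4, 30.2 and 26.9 in the Het-CKO hearts and 35.2, 35.4 and 35.8 in the Hom-CKO hearts (limma log2 fold change 0.16, SE 0.10, adjusted p = 0.301). The other read 26.4, 28.5 and 23.7 in CTL, 25, 24.3 and 21.4 in Het-CKO and 25.04, 24.9 and 25.3 in Hom-CKO hearts (log2 fold change -0.06, SE 0.09, adjusted p = 0.715). The Hom-CKO hearts lay above all CTL hearts on the brighter probe and among them on the other, and neither difference passed the test. With median scaling the dimmer probe fell, with a log2 fold change of -0.37 and an adjusted p of 0.0275, while the brighter one read -0.16 (adjusted p = 0.302). Whether either probe lies in the floxed exons is not known here, so neither checks the genotype labels, and transcripts of non-cardiomyocytes and truncated transcripts would also be read.

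Of the other CSN subunits, 3 of 8 genes fell, where 12.4% of all genes tested did. Cops4, the subunit that senses the neddylated ligase, read 2.15, 2.59 and 2.43 in CTL and 1.58, 1.403 and 1.48 in Hom-CKO hearts (log2 fold change -0.68, SE 0.16, adjusted p = 0.00758). Cops3 and Cops6, the latter the partner of the catalytic subunit, fell by less (log2 fold change -0.34, adjusted p = 0.0336, and -0.26, adjusted p = 0.0288). For these 3 genes the hearts of each group did not overlap, as for 38.2% of all genes in either direction. The count of 3 became 1 without CTL replicate 1, Hom-CKO replicate 1 or Hom-CKO replicate 2, and 0 with array brightness as a covariate or without both hearts with Xist at the floor. The catalytic subunit Cops5 read 13.96, 16.1 and 14.5 in CTL and 14.5, 11.9 and 12.6 in Hom-CKO hearts on its brighter probe, which overlap (adjusted p = 0.352). Gps1, Cops2, Cops7a and Cops7b did not pass the test, with log2 fold changes of -0.08, 0.15, 0.22 and, on its 2 probes, 0.11 and 0.17.

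Across the array, 5204 of 26589 probes tested passed an adjusted p of 0.05 in limma (19.6%), 2418 higher (9.09%) and 2786 lower (10.5%) in Hom-CKO hearts. With median scaling 6565 probes passed (24.7%), and the share of calls that were higher went from 46.5% to 28.4%. Taking each gene at its brightest probe, 3685 of 16604 genes passed (22.2%): 1627 rose (9.8%) and 2058 fell (12.4%). With median scaling 4770 genes passed (28.7%), of which 1118 rose (6.73%) and 3652 fell (22.0%), and the median log2 fold change over all genes went from -0.02 to -0.12. The values of the 3 hearts of each group did not overlap for 6341 genes (38.2%). These percentages of genes are the background for every count of list members. Where leaving out 1 heart moved a count of 3 or more list members by over 1.5 times, the count without that heart is given beside it. The 5204 probes became 3464 when only arrays at 3 weeks were normalized and fitted, 3086 without both hearts with Xist at the floor, and 1930 with array brightness as a covariate, although brightness did not overlap between the groups. Most changes were small: the genes that rose had a median log2 fold change of 0.55, and 254 of them rose at least 2-fold, 42 at least 4-fold and 12 at least 8-fold. Among those that fell, 216 changed at least 2-fold, 18 at least 4-fold and 4 at least 8-fold.

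**Figure D1:**
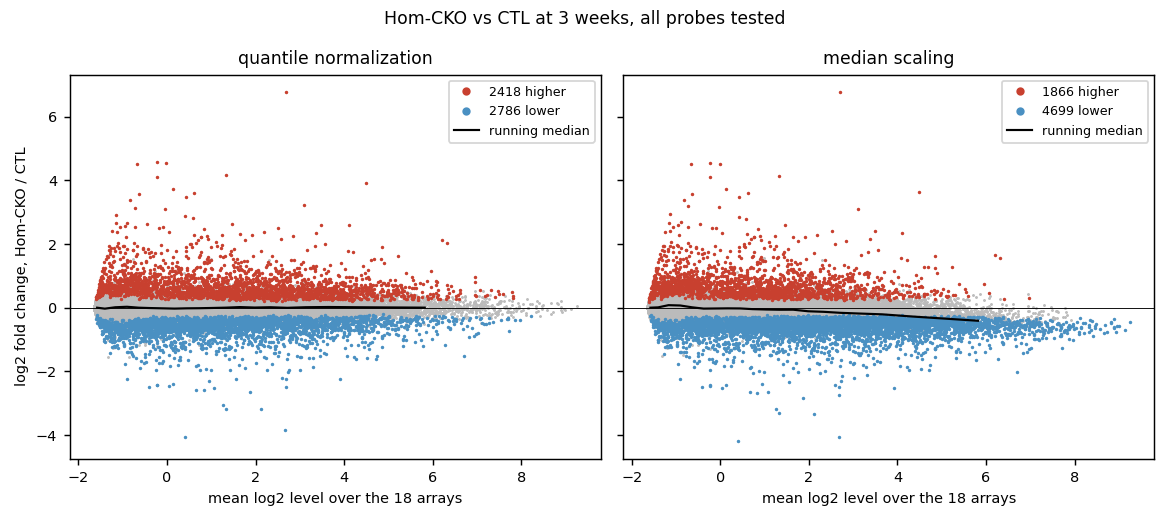
Log2 fold change of Hom-CKO over CTL hearts at 3 weeks (vertical axis) against the mean log2 level over the 18 arrays (horizontal axis) for each probe tested, with quantile normalization (left) and median scaling (right). Red probes passed the test as higher and blue ones as lower, and the running median in black stays near 0 on the left and falls below 0 toward the bright probes on the right, where 1866 probes were higher and 4699 lower.

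The largest rises were taken from probes that passed the test with both scalings, were above background in all 3 Hom-CKO hearts and did not overlap between the groups: 14 probes of 13 genes. Since size chose them, their values are a description. The largest of all was Ighv1-54, a variable segment of the immunoglobulin heavy chain, which read 0.318, 0.335 and 0.385 in CTL and 30.6, 41.03 and 42.4 in Hom-CKO hearts (log2 fold change 6.77, SE 0.21, adjusted p = 3.83e-11). It read 39.9 and 27.2 in the Het-CKO hearts whose spot could be used (the spot of replicate 2 was left out), so both groups with Cre were high and the group without it was at or near the floor, with 1 of 3 CTL hearts above background. The log2 difference of Hom-CKO from Het-CKO hearts was 0.19 (adjusted p = 0.675). It was the single leading rise that passed the test in Het-CKO vs CTL, and it is kept apart from the genes below.

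Metabolic enzymes and secreted signals came next. Bdh1, the mitochondrial enzyme that oxidizes the ketone body 3-hydroxybutyrate, read 0.691, 0.805 and 0.557 in CTL, 0.952, 0.629 and 0.958 in Het-CKO and 15.1, 18.01 and 15.3 in Hom-CKO hearts (log2 fold change 4.57, SE 0.18, adjusted p = 1.64e-10). Gdf15, a circulating stress cytokine of the TGF-beta family, read 0.318, 0.613 and 0.473 in CTL, with 2 of these 3 above background, and 11.3, 11.5 and 8.94 in Hom-CKO hearts (log2 fold change 4.54, SE 0.33, adjusted p = 1.28e-07). Ido1, which opens the kynurenine route of tryptophan breakdown, read 1.92 and 1.44 in the CTL hearts with a usable spot and 28.7, 29.4 and 32.02 in Hom-CKO hearts (log2 fold change 4.17, SE 0.25, adjusted p = 3.75e-08). In all of these the Het-CKO hearts were near the CTL hearts and did not pass the test against them, and the lowest Hom-CKO heart was several fold above the highest heart of the other groups. Cda, the cytidine deaminase of pyrimidine salvage, went from 0.881, 1.198 and 0.646 to 10.03, 13.3 and 9.396 (log2 fold change 3.61, SE 0.20, adjusted p = 5.55e-09). Nppa, which encodes atrial natriuretic peptide and is switched off in the healthy adult ventricle, went from 25.97, 11.8 and 13.1 to 245, 254 and 224 (log2 fold change 3.92, SE 0.40, adjusted p = 4.78e-06). Nppa is also an atrial marker, and Myl7, the atrial myosin light chain, read 53.5, 8.01 and 3.06 in the CTL hearts and 19.3, 8.12 and 5.27 in the Hom-CKO hearts: replicate 1 of either group held the most, and Nppa was as high in the Hom-CKO hearts with little Myl7.

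Regulators followed. Cdkn1a, the cyclin-dependent kinase inhibitor p21, read 6.13, 4.09 and 3.38 in CTL, 7.15, 6.02 and 6.67 in Het-CKO and 45.8, 39.3 and 38.5 in Hom-CKO hearts (log2 fold change 3.23, SE 0.17, adjusted p = 3.00e-09). Tbx15, a T-box transcription factor of skeletal development, was read by 2 probes that agreed: 0.755, 0.927 and 0.532 against 7.33, 8.24 and 8.72 on one (log2 fold change 3.49, SE 0.21, adjusted p = 2.78e-08) and 0.7004, 0.532 and 0.318 against 7.696, 8.66 and 8.98 on the other (log2 fold change 4.1, 2 of 3 CTL hearts above background). The groups are far apart on both. The uncharacterized transcript 5830418P13Rik was above background in 1 CTL heart and read 4.38, 4.58 and 4.56 in Hom-CKO hearts (log2 fold change 3.58, SE 0.20, adjusted p = 7.23e-09).

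For 4 leading genes no CTL heart was above background, so the fold is a lower bound, the Hom-CKO mean over the lowest signal that counts as above background. Serpinb1c, a serine protease inhibitor, was at least 19.9-fold higher (Hom-CKO 7.49, 7.32 and 6.95, adjusted p = 6.14e-12). Syndig1, a synapse differentiation protein, was at least 9.29-fold higher (2.76, 4.35 and 3.22, adjusted p = 5.89e-10). Mfsd4b5, a transporter of the major facilitator family, was at least 8.18-fold higher (3.26, 2.78 and 2.91, adjusted p = 5.46e-11). Rasgrf2, an exchange factor that loads Ras and Rac with GTP, was at least 6.89-fold higher (2.2, 2.82 and 2.55, adjusted p = 6.14e-12). Of the 14 leading rises, 13 also passed the test in Hom-CKO vs Het-CKO (background 14.4%), where both groups carry Cre, and 1 in Het-CKO vs CTL (background 0.59%). Each of these comparisons reuses the Hom-CKO or the CTL hearts that chose the probes, so the counts are not independent of that choice.

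**Figure D2:**
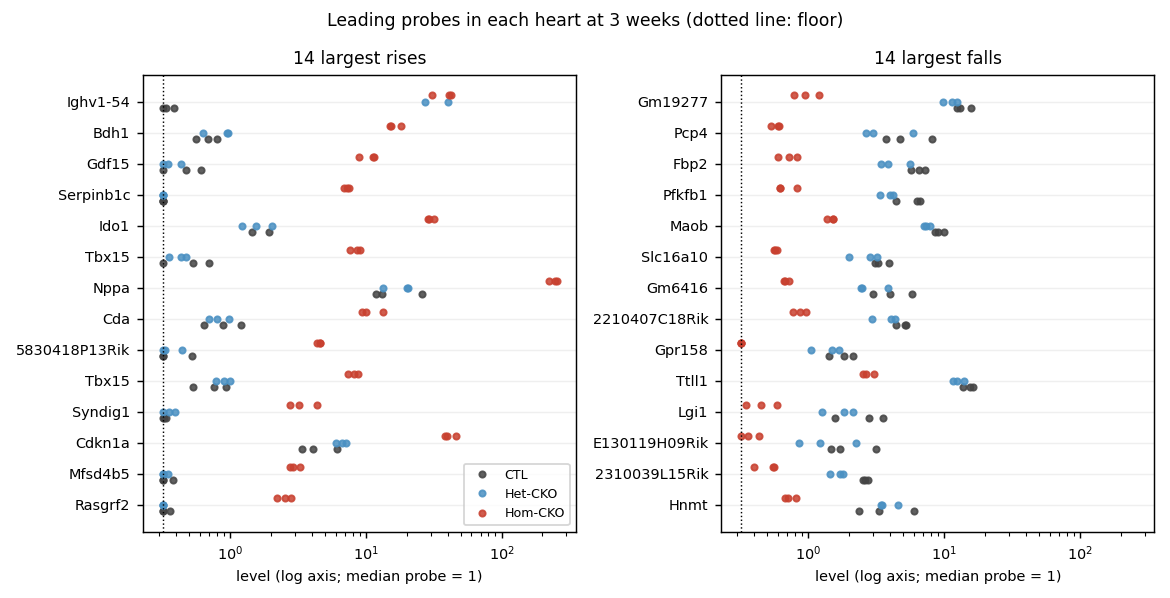
Level in each heart at 3 weeks (log axis, median probe = 1) of the 14 probes with the largest rises (left) and the 14 with the largest falls (right), with CTL in black, Het-CKO in blue and Hom-CKO in red. Each point is 1 heart and the dotted line is the floor of 0.318. Het-CKO hearts lie with or near CTL hearts except for Ighv1-54, where they lie with Hom-CKO hearts.

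The 14 largest falls, chosen by the same conditions with the CTL hearts as the higher group, held several enzymes of small-molecule turnover. Fbp2, the muscle fructose-1,6-bisphosphatase of gluconeogenesis, read 7.27, 6.496 and 5.69 in CTL, 5.6, 3.84 and 3.41 in Het-CKO and 0.825, 0.603 and 0.723 in Hom-CKO hearts (log2 fold change -3.18, SE 0.17, adjusted p = 3.50e-09). Pfkfb1, which makes and breaks down the glycolytic activator fructose-2,6-bisphosphate, read 6.33, 4.45 and 6.63 in CTL, 3.35, 4.22 and 3.98 in Het-CKO and 0.827, 0.621 and 0.6198 in Hom-CKO hearts (log2 fold change -3.07, SE 0.19, adjusted p = 1.88e-08). Maob, the mitochondrial monoamine oxidase B, read 9.93, 9.05 and 8.61 in CTL and 1.37, 1.51 and 1.53 in Hom-CKO hearts (log2 fold change -2.64, SE 0.12, adjusted p = 5.89e-10). Het-CKO hearts read below most CTL hearts in all 3 without passing the test (adjusted p = 0.0906, 0.149 and 0.217), and every Hom-CKO heart was below both groups. Hnmt, the histamine methyltransferase, went from 3.302, 2.36 and 6.04 to 0.676, 0.707 and 0.809 (log2 fold change -2.31, SE 0.25, adjusted p = 9.64e-06), with the CTL hearts spread more than the Hom-CKO hearts.

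Pcp4, a small calmodulin-binding protein, read 3.72, 4.76 and 8.21 in CTL and 0.606, 0.593 and 0.531 in Hom-CKO hearts (log2 fold change -3.19, SE 0.34, adjusted p = 1.03e-05). Gpr158, an orphan receptor of the G protein-coupled class, was above background in no Hom-CKO heart and at least 5.58-fold lower than in CTL hearts, which read 2.14, 1.83 and 1.43 (adjusted p = 1.81e-07). For 3 of the genes a second probe fell by far less or did not pass the test. Ttll1, a subunit of tubulin polyglutamylase, fell by 2.48 on the log2 scale on one probe and by 0.45 on the other (adjusted p = 5.89e-10 and 0.00412). Slc16a10, a carrier of aromatic amino acids, read -2.59 and -0.15 (adjusted p = 1.42e-08 and 0.666). Lgi1, a secreted leucine-rich repeat protein, read -2.48 and -0.06 (adjusted p = 9.57e-06 and 0.795), the latter on a dim probe. The predicted or uncharacterized genes Gm19277, Gm6416, 2210407C18Rik, E130119H09Rik and 2310039L15Rik fell with log2 fold changes of -3.83, -2.58, -2.51, -2.43 and -2.41. All 14 falls passed the test in Hom-CKO vs Het-CKO, and 1, 2310039L15Rik, also passed in Het-CKO vs CTL (-0.68, adjusted p = 0.0372). These counts, too, reuse hearts that chose the probes.

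The fetal gene program is a set of contractile and hormone genes that the ventricle expresses before birth, shuts down after it and expresses again under load or injury. Of its 10 members tested, 6 rose and 1 fell, with a median log2 fold change of 1.03 beside -0.02 over all genes, and 1.08 with median scaling. Ankrd1, a stretch-sensing ankyrin repeat protein of the sarcomere, read 10.1, 14.6 and 13.04 in CTL and 74.98, 71.9 and 76.6 in Hom-CKO hearts (log2 fold change 2.58, SE 0.25, adjusted p = 2.90e-06). Acta1, skeletal alpha-actin, read 79.1, 81.3 and 33.5 in CTL and 274 and 254 in the Hom-CKO hearts with a usable spot (log2 fold change 2.14, SE 0.37, adjusted p = 9.10e-04), and Nppb, which encodes B-type natriuretic peptide, 72.8, 62.3 and 34.5 in CTL and 197, 214 and 247 in Hom-CKO hearts (log2 fold change 2.02, SE 0.23, adjusted p = 1.63e-05). In each of these 3 genes every Hom-CKO heart with a usable spot lay above the CTL hearts. The hearts of 38.2% of all genes did not overlap, in either direction. Myh7, the slow beta-myosin heavy chain, rose on both of its probes (1.17 and 1.43), and Tnni1, slow skeletal troponin I, was above background in no CTL heart and passed narrowly (at least 1.85-fold higher, adjusted p = 0.0436), which leaving out any 1 of the 6 hearts ended. Acta2, smooth muscle actin, fell (log2 fold change -1.17, SE 0.17, adjusted p = 1.47e-04). Of the adult sarcomere genes 1 rose and 2 fell of 24, median 0.12, and 0 rose and 9 fell with median scaling, median -0.31. With quantile normalization Tpm1 (-0.79) and Tcap (-0.68) fell.

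Proteins of the Z-disc and sarcolemma that take part in the response to stretch split: 8 rose and 4 fell of 29. The risers were Ankrd2, the skeletal relative of Ankrd1 (log2 fold change 2.37, SE 0.16, adjusted p = 6.25e-08), the LIM protein Fhl1 (1.63), Popdc3 and Popdc2, cAMP-binding membrane proteins (1.63 and 0.97), filamin C, Flnc (1.3), the actin-binding Xirp1 (1.03), Synpo2l (0.77, not passing with median scaling) and dystrophin, Dmd (0.43). Fhl2, a relative of Fhl1 most expressed in heart, fell, as did talin 2 and the beta-sarcoglycan gene (log2 fold changes -0.50, -0.81 for Tln2 and -0.51 for Sgcb).

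Serum response factor, which drives many contractile and stretch genes, binds the CArG box. RefSeq promoters (GRCm38.p6, 250 bases before to 50 bases after each annotated start, 27025 genes) were searched for it on both strands, and 1.81% of all genes held a match. Among genes that rose, 1 of 6 fetal genes with a promoter and 2 of 6 Z-disc genes held one, and 1 of 2 Z-disc genes that fell did. Among all members with a promoter, changed or not, 2 of 10 fetal genes and 5 of 22 Z-disc genes held one. The matches of the genes described above are shown with the CArG box in capitals, 5′ to 3′ on the strand of the gene.
Acta1: cccgacacCCAAATATGGcttgggaa
Fhl1: ttggatcaCCTAAAATGGttaagaat
Dmd: tgggcagtCCTATTATGGgaaagcaa
Fhl2: gcgtgtgtCCTTATATGGtcaaatga
They lie at chr8:123894831-123894856 (minus strand, 73 bases before the start), chrX:56779573-56779598 (plus strand, 102 bases before), chrX:82948764-82948789 (plus strand, 98 bases before) and chr1:43163975-43164000 (minus strand, 31 bases before). A second annotated start of Fhl2 holds another match. Acta1, Fhl1 and Dmd were higher and Fhl2 lower in Hom-CKO hearts, so genes with a match moved both ways. A match is a description of letters and not a measured binding site.

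Targets of p53, the transcription factor that answers DNA damage and other stress, moved one way with quantile normalization: 11 rose and 0 fell of 26 tested, median 0.49, while with median scaling 9 rose and 4 fell, median 0.40. Without Hom-CKO replicate 2, 7 rose and 1 fell. Beside Cdkn1a the largest were Phlda3, an inhibitor of AKT (4.15, 4.44 and 4.84 in CTL and 19.5, 20.6 and 19.4 in Hom-CKO hearts, log2 fold change 2.15, SE 0.16, adjusted p = 1.34e-07), Ddit4, an inhibitor of mTORC1 (1.13), the RNA-binding Zmat3 (1.07), the nuclease Aen (0.94) and Gtse1 (0.90). Both pro-death BCL-2 relatives Bax (0.83) and Bbc3 (0.66) rose. In the wider cell death list 6 rose and 5 fell of 39, median -0.06. With median scaling it leaned lower, 4 and 12 with a median of -0.24, and without Hom-CKO replicate 1 the number that fell was 2. The TWEAK receptor Tnfrsf12a (log2 fold change 1.92, SE 0.27, adjusted p = 1.02e-04) and the protective Bcl2 (0.71) and Bcl2l1 (0.43) were among the risers, and Gsdmd, whose product forms membrane pores in pyroptosis (-0.68), and Xiap, an inhibitor of caspases (-0.64), were among the fallers.

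The integrated stress response slows translation and switches on ATF4 targets. Of 33 genes tested, 9 rose and 4 fell, median 0.19, and the median turned to -0.03 with median scaling (5 rose and 6 fell). Without Hom-CKO replicate 2, 5 rose, and without CTL replicate 2, 2 fell. Atf4 itself rose only with quantile normalization (0.72). Beside Gdf15, Chac1, which degrades glutathione (1.16), Ppp1r15a, which restores translation (0.75), and the mitochondrial folate enzyme Mthfd2 (0.56) rose. Other ATF4 targets fell, among them asparagine synthetase, Asns (-0.72), Psph of serine synthesis (-0.42) and Stc2 (-1.07). ATF4 sites resemble the amino acid response element, searched as TGATGNAA on both strands and found in 4.51% of all promoters. In this list it was in 3 of 8 genes that rose and 2 of 4 that fell, so genes with the element moved both ways. Among all 33 list members with a promoter, changed or not, 13 held it (39.4%).
Chac1: tccctgccgTTGCATCActcctgcca
Asns: ccagccacaTGATGAAActtcccgca
Capitals mark the element, which lies on the opposite strand in Chac1, at chr2:119351040-119351065 (plus strand, 193 bases before the start) and chr6:7693216-7693241 (minus strand, 23 bases before) in GRCm38.p6.

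Heat shock and endoplasmic reticulum chaperones, which refold or hold damaged proteins, held 9 genes that rose and 3 that fell of 39, median 0.13. With median scaling 3 were higher and 9 lower with a median of -0.12. Over all genes 6.73% were then higher and 22.0% lower, and the median was also -0.12. Of the risers only Hspa8, Hsph1 and Hspb1 rose with both scalings. Hspa8, the constitutive HSC70, read 0.4997, 0.318 and 0.513 in CTL and 1.05, 0.955 and 0.762 in Hom-CKO hearts (log2 fold change 1.08, SE 0.19, adjusted p = 9.14e-04). This probe was dim, with CTL replicate 2 at the floor. The Hspa8 call ended with the methods' t-test and with array brightness as a covariate. Hsph1, its nucleotide exchange partner, read 0.7905, 0.616 and 0.5305 in CTL and 1.46 and 1.07 in the Hom-CKO hearts with a usable spot (log2 fold change 0.97, SE 0.18, adjusted p = 0.00175), and the small heat shock protein Hspb1 129.9, 112 and 97.8 in CTL and 195, 191 and 209.8 in Hom-CKO hearts (log2 fold change 0.82, SE 0.12, adjusted p = 1.98e-04). The small heat shock genes of muscle did not move together: Hspb3 (-0.91) and Hspb2 (-0.39) fell, and Hspb8 rose with quantile normalization only (0.36). The core of the heat shock element was searched as GAANNTTC, which reads the same on both strands, and 9.04% of all promoters held it. Of genes with a promoter, it was in 4 of 5 that rose and 1 of 2 that fell. Among all 32 list members with a promoter, changed or not, 11 held it (34.4%).
Hspb1: tcaacaagaGAAGTTTCcagatgggg
Hsph1: cagattctgGAAAGTTCtcctcagta
Hspb3: ccccgaatgGAATTTTCaggcagagg
The first lies at chr5:135887793-135887818 (plus strand, 117 bases before the start), the second at chr5:149636279-149636304 (minus strand, 21 bases after a start) and the third, from a gene that fell, at chr13:113663884-113663909 (minus strand, 224 bases before), all in GRCm38.p6 with the core in capitals.

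NRF2 switches on detoxifying and antioxidant enzymes through the antioxidant response element. Its 37 targets tested split: 10 rose and 6 fell, with a median of 0.00, and 7 and 11 with median scaling. The glutathione transferase Gsta1 was above background in no CTL heart and at least 3.08-fold higher in Hom-CKO hearts, which read 1.39, 0.978 and 1.07 (adjusted p = 1.38e-07). Epoxide hydrolase 1, Ephx1 (1.48), sulfiredoxin, Srxn1 (1.03), thioredoxin reductase, Txnrd1 (0.84), Nqo1 (0.67) and Gclc, the rate-limiting enzyme of glutathione synthesis (0.65), rose. The glutathione transferases Gsta3 (log2 fold change -1.56, SE 0.35, adjusted p = 0.00484), Gsta4 (-0.74), Gstm1 (-0.57) and Gstm2 (-0.39) fell, as did Cbr1 (-1.15). Glutathione transferases are close in sequence, and cross-hybridization between them was not tested. Of the aryl hydrocarbon receptor list, which shares Gsta1 and Nqo1, 3 rose and 0 fell of 12. The element of NRF2, searched as TGACNNNGC on both strands, was in 3 of 8 promoters of genes that rose, in 1 of 4 of those that fell and in 14.0% of all. Among all 36 members of the NRF2 list with a promoter, changed or not, 11 held it (30.6%).

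Genes of mitochondrial fuel use fell more often than they rose, and how many did depended on the scaling. No gene of branched-chain amino acid degradation rose: 0 rose and 15 fell of 22, median -0.40, and 21 fell with median scaling (median -0.78). The most changed were both subunits of methylcrotonyl-CoA carboxylase, Mccc1 (11.6, 10.1 and 9.93 in CTL and 5.31, 5.197 and 5.91 in Hom-CKO hearts, log2 fold change -0.94, SE 0.11, adjusted p = 2.04e-05) and Mccc2 (-0.89), the isobutyryl-CoA dehydrogenase Acad8 (-0.84), the propionyl-CoA carboxylase subunit Pcca (-0.79), and Ppm1k (-0.74), the phosphatase that activates the branched-chain keto acid dehydrogenase, whose subunits Bckdhb (-0.73) and Dbt (-0.56) also fell.

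In fatty acid oxidation 1 rose and 12 fell of 32, median -0.43, with 26 lower and a median of -0.80 under median scaling. Ucp3, a mitochondrial carrier that tracks fatty acid supply, read 3.15, 3.23 and 4.47 in CTL and 1.15, 0.941 and 0.716 in Hom-CKO hearts (log2 fold change -1.96, SE 0.31, adjusted p = 3.49e-04). Hadh, the short-chain hydroxyacyl-CoA dehydrogenase, read 51.2, 45.9 and 45.1 in CTL and 19.6, 20.1 and 21.9 in Hom-CKO hearts (log2 fold change -1.21, SE 0.08, adjusted p = 8.75e-08), and Slc25a20, which carries acylcarnitine across the inner membrane, 15.9, 13.7 and 10.7 in CTL and 5.98, 5.73 and 6.397 in Hom-CKO hearts (log2 fold change -1.14, SE 0.13, adjusted p = 1.96e-05). Every Hom-CKO heart lay below the CTL hearts in these 3, where 38.2% of all genes did not overlap in either direction. Eci1, Ech1, Mlycd, Decr1 and Cpt2 fell by less (-0.92, -0.82, -0.74, -0.67 and -0.59).

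The tricarboxylic acid cycle list held 0 genes that rose and 11 that fell of 26 (median -0.24), and 20 fell with median scaling (median -0.69). The count of 11 rested on single hearts: it was 2 without CTL replicate 1, 6 without CTL replicate 2, 3 without Hom-CKO replicate 2, 4 without Hom-CKO replicate 1 or 3, and 3 when the 6 arrays of both groups were fitted alone. It was led by the pyruvate dehydrogenase subunit Pdha1 (-0.66) and the succinate dehydrogenase subunit Sdhb (-0.62). Pyruvate dehydrogenase kinases, which switch that enzyme off, fell as well (-0.56 for Pdk2 and -0.54 for Pdk1). Of 55 subunits of respiratory complexes I to IV, 2 rose and 10 fell, median -0.11, a share called near the background (6 fell without Hom-CKO replicate 1), with Uqcrc1 of complex III the lowest (log2 fold change -0.62, SE 0.11, adjusted p = 7.53e-04). With median scaling 45 of them fell and none rose, median -0.60, and Cox6a1, which had risen (0.43), read -0.08. ATP synthase subunits behaved alike, 0 rose and 4 fell of 14 against 13 lower with median scaling, and without single hearts the 4 became 1 (Hom-CKO replicate 1) or 2 (CTL replicate 2, CTL replicate 3 or Hom-CKO replicate 2). The subunit Ndufa3 had 2 probes in opposite directions, -0.36 on the brighter and 2.07 on a far dimmer one. The element bound by estrogen-related receptors, which drive many of these genes, was searched as TNAAGGTCA on both strands. It was in 1.43% of all promoters and in 0 of 10, 10 and 13 genes that fell in the fatty acid, tricarboxylic acid and branched-chain lists.

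Glycolysis and glycogen genes split evenly, 7 rose and 7 fell of 38, median -0.10, but with median scaling 3 rose and 21 fell (median -0.47). The risers numbered 3 without CTL replicate 3 or Hom-CKO replicate 1 and 4 without Hom-CKO replicate 2. Beside Fbp2 and Pfkfb1, the phosphorylase kinase subunit Phkg1 fell from 12.99, 11.9 and 10.05 to 2.17, 2.87 and 2.55 (log2 fold change -2.2, SE 0.13, adjusted p = 8.20e-09), with Eno3, the muscle enolase (-0.72), and Ldha (-0.59). The glucose transporter of fetal heart, Slc2a1, rose (log2 fold change 0.86, SE 0.24, adjusted p = 0.0203), together with Pfkp (0.67) and Pgam1 (0.71), and Hk1 rose with quantile normalization only (0.78).

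**Figure D3:**
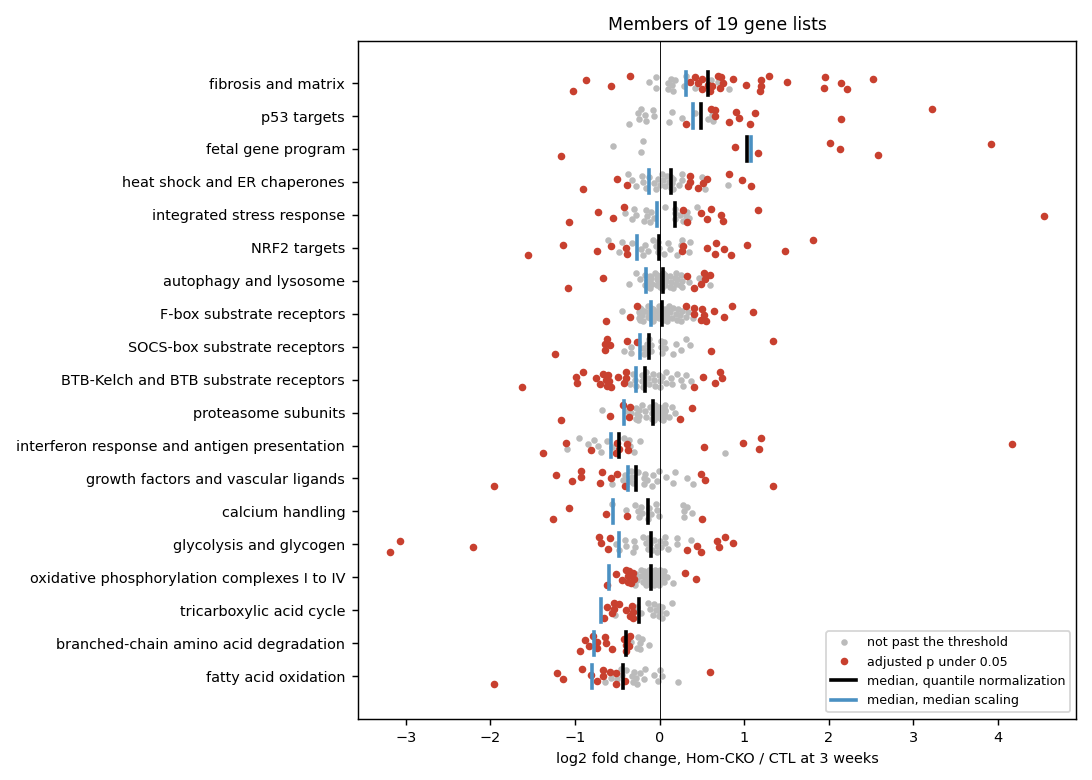
Log2 fold change of Hom-CKO over CTL hearts at 3 weeks (horizontal axis) of each tested member of 19 gene lists (rows of the plot), in red where adjusted p was under 0.05 and gray where not. Black bars are list medians with quantile normalization and blue bars with median scaling. The median is 0.57 for fibrosis and matrix and -0.43 for fatty acid oxidation, and the blue bar of the respiratory complexes is at -0.60 against a black bar at -0.11.

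Extracellular matrix and fibrosis genes held the largest share of risers among the lists with over 40 members tested. Of 43 genes 24 rose and 4 fell, median 0.57, and 16 and 5 with median scaling (median 0.31). With array brightness as a covariate 12 rose and 2 fell, where 925 and 1005 of all 26589 probes tested did. Spp1, the secreted glycoprotein osteopontin, read 0.458, 0.656 and 0.512 in CTL and 2.697, 4.91 and 2.22 in Hom-CKO hearts (log2 fold change 2.53, SE 0.29, adjusted p = 2.44e-05). Col8a1, a short-chain collagen, read 1.28, 1.39 and 1.04 in CTL and 6.91, 5.34 and 5.08 in Hom-CKO hearts (log2 fold change 2.22, SE 0.16, adjusted p = 2.67e-07), and Timp1, an inhibitor of matrix metalloproteinases, 1.51, 1.85 and 1.79 in CTL and 6.81, 6.998 and 6.16 in Hom-CKO hearts (log2 fold change 1.96, SE 0.20, adjusted p = 9.32e-06). No CTL heart reached a Hom-CKO heart in any of the 3, where 38.2% of all genes did not overlap in either direction. Matricellular and related matrix proteins rose: Cilp (2.14), Thbs4 (1.94), Thbs1 (1.3), Ccn2 (1.2) and Tnc (1.19), and Postn, periostin, on its brighter probe (1.51) but not on a probe near the floor (0.11, adjusted p = 0.664). The collagen crosslinker Lox (1.2) and the fibrillar collagens Col1a1 (1.02) and Col1a2 (0.75) rose, while Col3a1 (0.42), Col5a1 (0.50) and Col6a1 (0.37) rose with quantile normalization only. Emilin2, Fmod, Thbs2 and Timp3 fell (-1.02, -0.87, -0.57 and -0.35). The fallers of the list numbered 1 without CTL replicate 3 and 2 without Hom-CKO replicate 2 or 3.

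**Figure D4:**
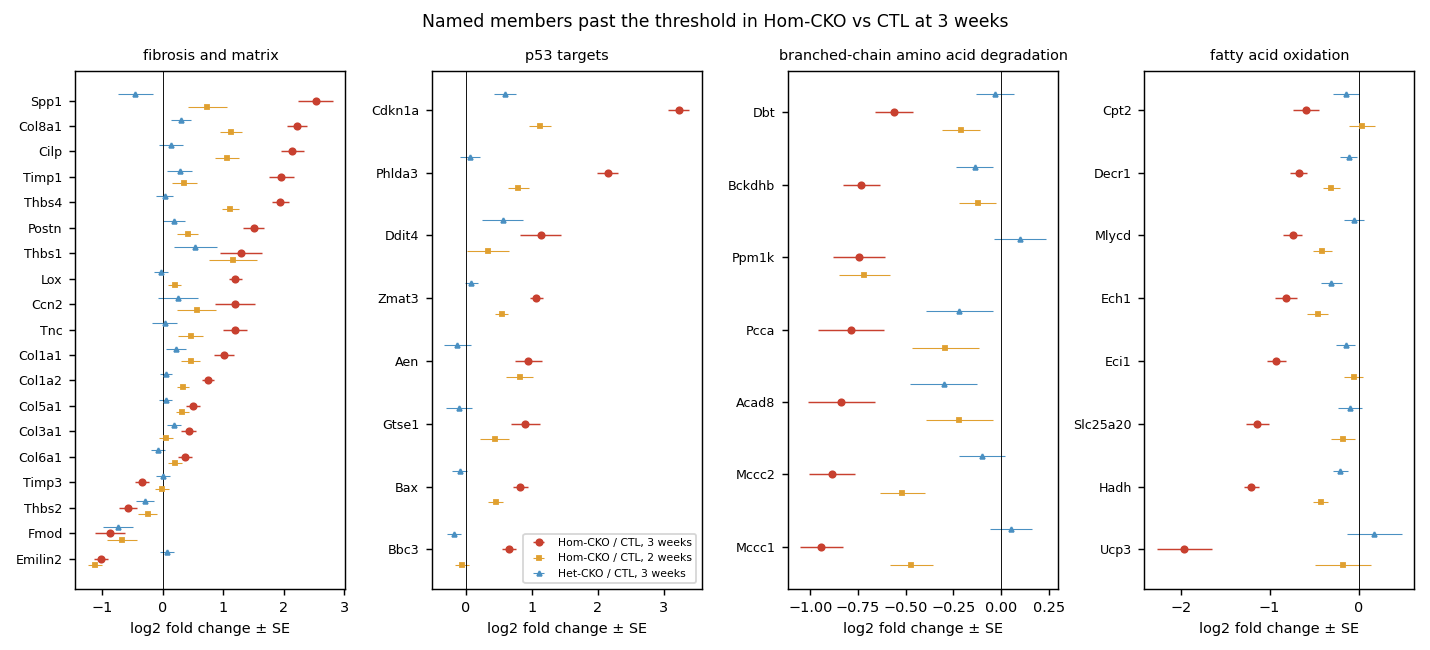
Log2 fold change with its SE of the members named in the text that passed the test in 4 lists: Hom-CKO over CTL at 3 weeks (red circles), the same at 2 weeks (orange squares) and Het-CKO over CTL at 3 weeks (blue triangles). Spp1 at 2.53 and Cdkn1a at 3.23 stand at the top of their lists, and Ucp3 at -1.96 at the bottom of fatty acid oxidation.

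The TGF-beta family list was mixed: 7 rose and 3 fell of 29, median 0.08, and 6 and 5 with median scaling, median -0.01. The ligand Tgfb2 (log2 fold change 1.1, SE 0.09, adjusted p = 6.21e-07), Tgfb3 (0.67) and Tgfb1 (0.51) rose. So did the activin antagonist Fstl3 on one of its probes (1.26, with the other at -0.03), and myostatin, Mstn, an inhibitor of muscle growth, fell (-1.05). Growth factors and vascular ligands moved mainly down, 3 rose and 10 fell of 34, median -0.28. Apln, the vasodilator apelin, read 5.06, 8.38 and 6.31 in CTL and 1.63 and 1.69 in the Hom-CKO hearts with a usable spot (log2 fold change -1.95, SE 0.20, adjusted p = 6.54e-06), and its receptor Aplnr fell (-0.57). Angpt1, the stabilizing ligand of TIE2 (-1.22), Fgf16 (-1.03), Pgf (-0.93) and the angiotensin receptor Agtr1a (-0.93) fell, whereas Fgf18 rose (1.34). Of the endothelial markers 0 rose and 3 fell of 6, namely Tek, Pecam1 and Kdr (-0.59, -0.47 and -0.41), with a summed level of 52.5 to 55.8 against 69.0 to 69.8 in CTL hearts. Without CTL replicate 1, CTL replicate 2 or Hom-CKO replicate 1, 1 of the 6 fell. In bulk tissue, fewer cells of a type and less RNA per cell cannot be told apart.

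Inflammatory genes moved in both directions. Of the chemokine and cytokine list 5 rose and 3 fell of 26, where beside Spp1 and Timp1 the monocyte receptor Ccr2 (0.86) rose, the chemokine Ccl5 was at least 1.58-fold higher, and Cxcl12 (-0.81), Cxcr4 (-0.66) and Cxcl10 (-0.54) fell (1 fell without Hom-CKO replicate 3). The interleukin-1 receptor antagonist, Il1rn, was at least 1.68-fold higher, and Cebpd (0.82) and the oncostatin M receptor, Osmr (0.44), rose, while Il6ra fell (-0.43). Complement held 2 genes that rose and 0 that fell of 16: Masp1, a protease of the lectin route, rose on one probe (log2 fold change 1.92, SE 0.10, adjusted p = 3.77e-09) and read 0.54 on a dim one (adjusted p = 0.0806), and Cfi was at least 1.06-fold higher.

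The interferon and antigen presentation list was mixed: 5 rose and 8 fell of 27, median -0.48. With median scaling 12 fell, and the 8 became 3 without Hom-CKO replicate 1, 5 without Hom-CKO replicate 2 and 2 with array brightness as a covariate. Class II genes H2-Ab1 and Cd74 rose (1.2 and 1.17). Fallers were Ifit3, at least 2.599-fold lower, Ifi35 (-1.1), Gbp2 (-0.81), the transcription factor Stat2 (-0.48) and the peptide transporters Tap1 and Tap2 (-0.38 and -0.50), while Mx2 (0.98) and Ifit2 (0.52) rose. In eicosanoid signaling 3 rose and 8 fell of 23, with 1 riser without CTL replicate 1, CTL replicate 2, Hom-CKO replicate 2 or Hom-CKO replicate 3: the prostaglandin D synthase Ptgds rose (log2 fold change 1.75, SE 0.19, adjusted p = 9.53e-06) and Ltc4s, which makes leukotriene C4 (-1.26), the phospholipase Pla2g5 (-1.16) and the receptor for prostaglandin F, Ptgfr, on its brighter probe (-0.75), fell. On the dimmer probe of Ptgfr all 3 Hom-CKO hearts were at the floor (adjusted p = 1.44e-06).

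Substrate receptors of CRLs are grouped here by the cullin they serve, and the families were not tested against each other. BTB proteins, which join substrate and CUL3, held 5 genes that rose and 16 that fell of 49, median -0.17, and 3 and 20 with median scaling. These became 3 and 7 with array brightness as a covariate, and 4 and 7 when the 6 arrays of both groups were fitted alone. Fewer probes of the whole array passed in these settings as well. Rhobtb1 fell on both probes (-1.53 and -1.62). On the brighter it read 35.1, 37.2 and 45 in CTL, 39.3, 38.4 and 44.1 in Het-CKO and 13.4, 11.2 and 13.4 in Hom-CKO hearts. Rhobtb3 (-0.99), Klhl23 (-0.98), the sarcomeric Klhl41 (log2 fold change -0.91, SE 0.13, adjusted p = 1.57e-04) and Klhl31 (-0.70) also fell, and Klhl22 (0.74), Spopl (0.66) and Rhobtb2 (0.52) rose with both scalings. F-box proteins, which serve CUL1, held 11 genes that rose and 3 that fell of 60, but 6 and 9 with median scaling. Without CTL replicate 2, Hom-CKO replicate 1 or Hom-CKO replicate 2, 1 fell. The F-box counts were 5 higher and 0 lower with array brightness as a covariate, where 925 and 1005 of all 26589 probes tested were. The sugar-binding Fbxo27 (1.03, 1.03 and 0.809 in CTL and 1.79, 2.1 and 2.24 in Hom-CKO hearts, log2 fold change 1.1, SE 0.13, adjusted p = 2.06e-05), Fbxo17 (0.86) and Fbxo30 (0.64) rose with both scalings, and the muscle ligases Fbxo32, known as atrogin-1 (0.76), and Fbxo40 (0.54) with quantile normalization only. SOCS-box proteins held 2 genes that rose and 7 that fell of 29: Spsb4 rose (1.34), and Asb14, Asb15, Asb10 and Asb4 of the ankyrin group fell (-1.23, -0.65, -0.64 and -0.63). Under the brightness covariate 1 rose and 3 fell.

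Of the CRL core 3 rose and 1 fell of 25, median 0.08, and 0 rose and 7 fell with median scaling, median -0.23. The risers numbered 1 without CTL replicate 1 and 0 without Hom-CKO replicate 1. Cand1, which exchanges substrate receptors (0.36), Cul9 (0.30) and Ddb1 (0.26) rose with quantile normalization only, with Ddb1 at 0.00 under median scaling, and Cul4b fell (-0.32). Of 43 proteasome genes 2 rose and 5 fell, and 26 fell with median scaling and 3 without CTL replicate 2. Psme1 and Psme2, the subunits of the interferon-inducible activator PA28, were the lowest (log2 fold change -1.17, SE 0.13, adjusted p = 1.03e-05, with a dim second probe at -0.04, and -0.59). In autophagy and lysosome 6 rose and 2 fell of 51 with quantile normalization. With median scaling 2 rose and 11 fell, where 6.73% and 22.0% of all genes did. The kinase Ulk1 (0.49) and the protease Atg4b (0.53) rose with both, and the receptor Sqstm1 (0.41) with quantile normalization only. Pik3r4, a subunit of the VPS34 lipid kinase, fell (log2 fold change -1.08, SE 0.10, adjusted p = 2.04e-06).

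Genes of the cardiac action potential moved both ways, 5 rose and 5 fell of 31. Without Hom-CKO replicate 1, 3 rose, and without Hom-CKO replicate 2 or 3, 3 fell. The potassium channel of the fast repolarizing current fell in both its parts. Kcnip2, its cytosolic subunit, read 15.7, 17.98 and 13.6 in CTL and 4.85, 6.41 and 6.37 in Hom-CKO hearts (log2 fold change -1.42, SE 0.21, adjusted p = 2.14e-04). Kcnd2, its pore, read 8.95, 8.95 and 8.07 in CTL and 3.69, 3.15 and 2.69 in Hom-CKO hearts on the brightest of 7 probes (log2 fold change -1.46, SE 0.14, adjusted p = 2.93e-06). The other 6 ran from -1.65 to -0.23, of which 4 passed the test. Kcne1, the partner of the slow delayed rectifier, rose (log2 fold change 1.85, SE 0.21, adjusted p = 1.23e-05). Calcium handling genes held 1 gene that rose and 4 that fell of 23, and 0 and 11 with median scaling (median -0.14 and -0.55). The phosphatase inhibitor Ppp1r1a fell on its brighter probe (-1.26; the other read 0.06), and Hrc, the histidine-rich calcium binding protein of the sarcoplasmic reticulum, fell (-0.63).

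Of the transcription factors of the heart 4 rose and 2 fell of 34, and 2 rose without CTL replicate 2, CTL replicate 3 or Hom-CKO replicate 3. Beside Tbx15, the estrogen-related receptor genes Esrrb (0.77) and Esrrg (0.68) rose, and Hopx, a homeodomain partner of serum response factor, fell on both probes (132, 130.3 and 131 in CTL and 43.6, 48.7 and 44.8 in Hom-CKO hearts on the brighter, log2 fold change -1.52, SE 0.11, adjusted p = 7.48e-08; -1.46 on the other). Of the immediate early genes 3 rose and 0 fell of 22, namely Egr2 (1.69) and the phosphatases Dusp4 (0.85) and Dusp6 (0.75), which switch off MAP kinases. Chromatin remodeling genes held 2 genes that rose and 2 that fell of 43. With median scaling 0 rose and 11 fell, where 6.73% and 22.0% of all genes did. Jade1, a scaffold of histone acetyltransferase complexes, read 16.9, 20.2 and 23.4 in CTL, 21.3, 17.5 and 17.9 in Het-CKO and 4.41, 4.36 and 3.96 in Hom-CKO hearts (log2 fold change -2.24, SE 0.12, adjusted p = 3.08e-09), and -0.04 on a dim probe. Of the cell cycle list, Cdkn1a included, 4 rose and 2 fell of 41, with 2 risers without Hom-CKO replicate 1 or 2: Ccnd2 (0.70) and Bub1b (0.50) rose and Cdkn1c (-0.74) fell.

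Microtubule genes held 10 genes that rose and 7 that fell of 49, but 4 and 16 with median scaling. The actin monooxygenase Mical3 rose (3.13, 3.65 and 2.89 in CTL and 9.33, 8.99 and 8.06 in Hom-CKO hearts, log2 fold change 1.45, SE 0.11, adjusted p = 1.47e-07), with the polyglutamylase Ttll7 (1.23), Map2 (1.21) and the kinesin heavy chain Kif5b (0.70), while Tppp, which promotes tubulin polymerization, fell (-1.02). In vesicle trafficking 8 rose and 8 fell of 63, with 5 and 18 under median scaling. Rin1, an exchange factor of RAB5, rose (log2 fold change 2.02, SE 0.13, adjusted p = 2.78e-08), as did Syt11 (0.68), and the small GTPases Rab3a, Rab9 and Rab4a fell (-0.74, -0.67 and -0.65). Syn2, a synapsin, rose by 0.40 on its brightest probe and by 2.87 and 2.53 on 2 dim ones, with 2 further probes that did not pass (0.31 and -0.07).

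Markers of the cell types in the ventricle were checked against the labels. All 7 cardiomyocyte markers were above background and none passed the test, with a summed level of 1543 to 1570 in CTL and 1387 to 1439 in Hom-CKO hearts, although 5 fell with median scaling. Macrophage (8 tested), neutrophil (4) and fibroblast (6) markers gave 0, 0 and 2 calls, and the latter were Postn and Col1a1, already among the matrix genes. Without CTL replicate 1, 3 of the 4 neutrophil markers fell, and their summed level was 2.77 to 8.401 in CTL and 2.18 to 2.99 in Hom-CKO hearts. Summed macrophage levels were 86.7 to 126 in CTL and 92.7 to 111 in Hom-CKO hearts. Of the lymphocyte markers only Ms4a1 passed, as lower (-0.38), with Cd3e and Cd8a above background on no array. The Schwann cell marker Sox10 fell (-0.70) and S100b passed narrowly (-0.67, adjusted p = 0.0423), a call that ended on leaving out any 1 heart but CTL replicate 1. The erythroid marker Alas2 fell (-0.50). Only 1 of 5 adipocyte and 1 of 6 skeletal muscle markers was bright enough to be tested, and neither passed. Of 6 smooth muscle and pericyte markers only Cspg4 passed, as higher (0.87), a call that ended with array brightness as a covariate. With median scaling 1 of the 6 rose and 1 fell. Their summed level was 45.2 to 51.02 in CTL and 40.9 to 52.3 in Hom-CKO hearts. The part of these cell types in the gene groups above was not tested.

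Fewer genes passed the test at 2 weeks. There 265 genes were higher in Hom-CKO hearts (1.6%) and 350 lower (2.11%) of 16588. Of the 1625 genes higher at 3 weeks with a value at both ages, 222 were higher at 2 weeks, which is 13.7% of the former and 83.8% of the latter, and of 2057 lower genes 313 were lower at 2 weeks (15.2% and 89.4%). The change of the difference with age, a contrast in the same model, passed the test for 366 of 26566 probes (1.38%) and 292 genes (1.76%), 182 upward (1.1%) and 110 downward (0.663%). Of the upward genes 179 rose at 3 weeks, and of the downward ones 105 fell at 3 weeks. The contrast contains the difference at 3 weeks, so such a match follows in part from how it is built. Leaving out single hearts moved the 366 probes to between 219 (without Hom-CKO replicate 3 at 2 weeks) and 608 (without CTL replicate 3 at 3 weeks), and to 243 without Hom-CKO replicate 2 at 3 weeks. The ages were scanned as separate sets, each holding all genotypes, so set and age cannot be told apart for a level.

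The changes with age were largest upward for genes that differed little or not at all at 2 weeks. Bdh1 read 0.318, 0.318 and 0.318 in CTL and 0.493, 0.508 and 0.321 in Hom-CKO hearts at 2 weeks (log2 fold change 4.13, SE 0.26, adjusted p = 2.43e-07 for the change with age). Ido1 read 1.21, 1.42 and 1.05 in CTL and 2.26, 2.61 and 1.65 in Hom-CKO hearts (log2 fold change 3.36, SE 0.34, adjusted p = 9.09e-05), and Cda 1.38, 0.993 and 0.932 in CTL and 1.55, 1.48 and 1.58 in Hom-CKO hearts (log2 fold change 3.12, SE 0.28, adjusted p = 1.96e-05). Rasgrf2 was at the floor in all 6 hearts at 2 weeks. None of these 4 passed the test at 2 weeks, and the CTL levels of Ido1 and Cda hardly moved with age. Serpinb1c was already higher at 2 weeks, 1.06, 0.843 and 0.609 in Hom-CKO hearts with CTL hearts at the floor (adjusted p = 2.32e-05). Downward, Jade1 read 20, 23.3 and 19.3 in CTL and 18.4, 18.2 and 16.96 in Hom-CKO hearts at 2 weeks (log2 fold change -2.02, SE 0.16, adjusted p = 5.96e-06). Lgi1 (-2.36), Lrat, which esterifies retinol (-2.14), and 2310039L15Rik (-1.86) also changed downward, and for these the CTL level was higher at 3 than at 2 weeks: Lrat went from 0.422, 0.318 and 0.596 to 1.66, 1.65 and 1.33 in CTL hearts and from 0.553, 0.648 and 0.5504 to 0.404, 0.522 and 0.496 in Hom-CKO hearts.

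For other leading genes the difference was there in full or in large part at 2 weeks. Of the 14 leading rises 10 passed the test as higher at 2 weeks (background 1.29%), and of the 14 falls 12 as lower (background 1.73%). The difference changed with age for 11 and 7 of them. That contrast contains the difference at 3 weeks by which the probes were chosen, so these counts are not independent of the choice. Ighv1-54 read 30.3, 36.01 and 35.1 in Hom-CKO and 0.318, 0.531 and 0.344 in CTL hearts at 2 weeks. Gm19277 (-2.99 at 2 weeks), Pcp4 (-2.73) and Ttll1 (-2.04) were also lower by most of their later difference. Gdf15 was higher at 2 weeks in all 3 Hom-CKO hearts (5.45, 3.77 and 1.65 against 0.448, 0.452 and 0.664), and its change with age just missed the threshold (log2 fold change 1.88, SE 0.46, adjusted p = 0.059). Nppa likewise rose at 2 weeks (7.18, 14.8 and 6.73 in CTL and 27.6, 29.7 and 21.6 in Hom-CKO hearts, log2 fold change 1.54), with a change of 2.38 (adjusted p = 0.0506).

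By list, the change with age passed the test upward for 5 matrix genes and 3 p53 targets and downward for 3 fatty acid oxidation genes, beside backgrounds of 1.1% and 0.663%. The matrix genes were Col8a1 (1.08), Timp1 (1.6), Postn (1.1), Lox (1.01) and Timp4, whose difference at 3 weeks did not pass by itself (1.11). The p53 targets were Cdkn1a (2.1), Phlda3 (1.35) and Bbc3 (0.71), and the fatty acid oxidation genes Hadh (-0.78), Eci1 (-0.87) and Slc25a20 (-0.96).

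**Figure D5:**
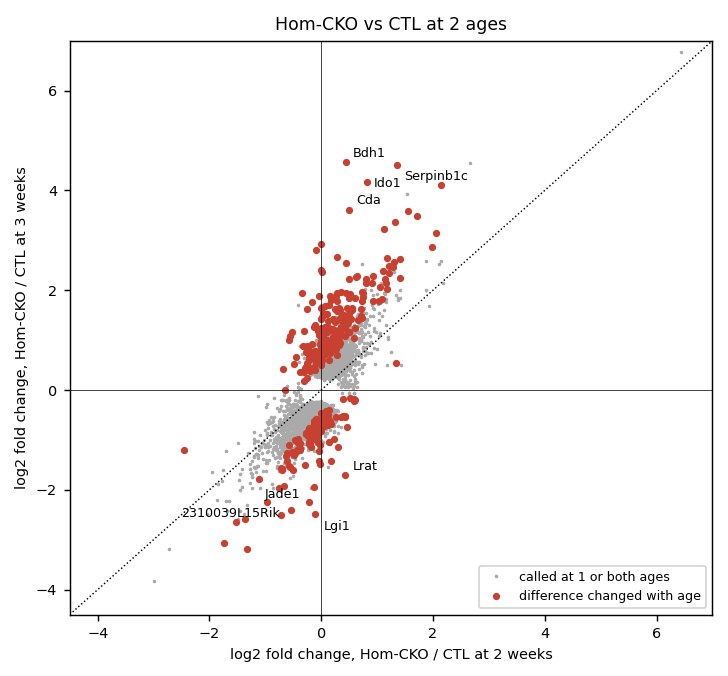
Log2 fold change of Hom-CKO over CTL hearts at 3 weeks (vertical axis) against that at 2 weeks (horizontal axis) for named probes that passed the test at 1 or both ages (gray), with those whose difference changed with age in red. Points above the dotted line of equality on the upper side, such as Bdh1 at 4.57 and 0.44, and below it on the lower side, such as Lgi1 at -2.48 and -0.12, have the larger difference at 3 weeks.

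Het-CKO hearts separate what comes with Cre from what comes with the loss of both alleles only in part, since they also lack 1 allele. In Het-CKO vs CTL 157 of 26593 probes passed the test. The largest either way that passed in both comparisons were, beside Ighv1-54 and a probe of Ptgfr, dim probes. Ptgfr on its dimmer probe read 1.45, 1.44 and 1.66 in CTL, 0.664 and 0.647 in Het-CKO hearts with a usable spot, and was at the floor in the Hom-CKO hearts. Cacna1s, a calcium channel of skeletal muscle, read 0.895, 0.665 and 0.507 in CTL and 0.355, 0.318 and 0.318 in Het-CKO hearts and was at least 2.11-fold lower in Hom-CKO hearts, which were all at the floor. Zfp462, Olfr569, Wnk1, Cask and Pgrmc2 stayed under a level of 1 in every heart at 3 weeks. The comparisons share the CTL hearts, so a dim CTL array would move both.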

How the data were processed

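RNA of 1 ventricle per array was labeled with a streptavidin-coupled fluorescent dye and scanned, and intensities were extracted by the authors with CodeLink Expression Analysis. The deposited raw intensity is linear, not normalized, and has the local background (median) subtracted from the mean of the spot. The methods name quantile normalization and a t-test with Benjamini-Hochberg adjustment. Here, the raw intensities of 34967 discovery probes were used, and spots that the software marked C, I or M were left out (1.80% to 2.57% of probes per array). The deposited scaled intensities served as an alternative.

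All 18 arrays were quantile normalized together, scaled to a median probe of 1 and log2-transformed, with values under 0.318 (the 1st percentile of signals above background) set to that floor. The 26606 probes that stood above background in every heart of 1 or more of the 6 groups were tested with lmFit and eBayes of limma 3.58.1 in R 4.3.3, with 1 mean per group, so that all groups share 1 estimate of the spread. Comparisons were adjusted one at a time by Benjamini-Hochberg, and an adjusted p under 0.05 passed. A gene in a list stands at its probe of highest mean level. Names came from the platform annotation and the files: 5202 probes had none and 681 had several. A script copied promoters from RefSeq (GRCm38.p6). The genome build of the probes is not given in the sources used here. The number of arrays limits the precision. Each p-value sets a difference against the spread between mice within groups, shared over the 6 groups and moderated by eBayes.

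Named genes are the CSN subunits, the 14 largest rises and falls under the conditions given with them, up to 4 of the most changed members of each list with others that a sentence on function needs, 4 either way for the change with age, and up to 4 either way that passed in Het-CKO vs CTL and Hom-CKO vs CTL. Further list members that passed were named after their values were seen, and a few genes are not reported here. The comparison, gene lists and tests were chosen with earlier results of these data known. The fit was tested on simulated data. Alternatives covered scaling, source, marked spots, background correction, filters, floor, prior variance, arrays fitted, test, block, brightness and leaving out hearts.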

Additional observations from a re-analysis of the deposited data

Results flagged for a closer look

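The Hom-CKO vs CTL difference at 3 weeks differed from that at 2 weeks, tested as a contrast of both differences in 1 limma fit, for 366 probes. Among the genes named above, the log2 change of the difference from 2 to 3 weeks was upward for Bdh1 (4.13), Ido1 (3.36), Serpinb1c (3.15), Cda (3.12), Rasgrf2 (2.92), Ankrd2 (2.37), Cdkn1a (2.1), Syndig1 (2.05), 5830418P13Rik (2.03), Tbx15 (1.96), Tbx15 (1.77), Gsta1 (1.63), Timp1 (1.6), Masp1 (1.41), Fhl1 (1.38), Phlda3 (1.35), Fstl3 (1.2), Timp4 (1.11), Postn (1.1), Mfsd4b5 (1.09), Col8a1 (1.08), Ccl5 (1.04), Lox (1.01), Fbxo27 (0.86), Rin1 (0.84), Tgfb2 (0.74), Mical3 (0.72) and Bbc3 (0.71). It was downward for Bckdhb (-0.61), Hadh (-0.78), Pgf (-0.79), Asb14 (-0.79), Eci1 (-0.87), Hopx (-0.94), Slc25a20 (-0.96), Maob (-1.12), Slc16a10 (-1.22), Ptgfr (-1.28), Pfkfb1 (-1.32), Kcnip2 (-1.59), 2210407C18Rik (-1.8), Apln (-1.83), Fbp2 (-1.85), 2310039L15Rik (-1.86), Jade1 (-2.02), Lrat (-2.14) and Lgi1 (-2.36). For a gene listed with 2 values, each is a probe. Where a gene was at the floor in a group, as Serpinb1c, Rasgrf2 and the Ptgfr probe were, the size of the change depends on the floor. Causes were not tested.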

How the results depend on the processing

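Of the 5204 probes that passed at 3 weeks, counts within 1.5 times were found with median scaling (6565), the deposited scaled intensities, marked spots kept, normexp background correction, other filters, a constant in place of the floor, an intensity trend and a lower floor chosen after the data were seen. The count was 3464 with arrays at 3 weeks only, 2892 with the 6 arrays of both groups only, 1203 with the methods' t-test (6327 at an unadjusted p under 0.05), 1930 with array brightness as a covariate and 3086 without both hearts with Xist at the floor. Leaving out 1 heart gave 3656 to 5253. The 366 probes whose difference changed with age became 204 without both those hearts, 239 with the lower floor and 219 to 608 when 1 heart was left out. Several of these fits held fewer arrays, and the cause of the moves was not tested. The age contrast was not run with arrays at 3 weeks only, with 6 arrays or with the t-test, which hold no second age.

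Same-numbered hearts were not taken as pairs, since their deviations correlated at 0.02, 0.22 and 0.08 and the labels name no litter. With the replicate number as a block, 4978 and 302 probes passed. Of 236 named probes that passed, 92 passed under every alternative. The t-test ended 132 calls, the brightness covariate 88 and median scaling 9, beside 5 more that changed sign with median scaling. Leaving out 1 heart or another ended the calls of 52 named probes. Calls ended under 4 or more of the 6 hearts left out for 19, which were Bcl2l1, Ccr2, Col6a1, Cops3, Cops6, Cul4b, Ddb1, Esrrg, Hk1, Ifit2, Il6ra, Kdr, Osmr, Pdha1, Pdk2, S100b, Tap1, Timp3 and Tnni1, and under 1 to 3 for Alas2, Aplnr, Asb10, Asns, Bub1b, Cand1, Ccn2, Cfi, Chac1, Col3a1, Cul9, Cxcl10, Cxcr4, Ddit4, Dmd, Dusp6, Fbxo32, Fmod, Gsta4, Gstm2, Gtse1, Ms4a1, Myh7, Ndufa3, Pecam1, Psme2, Psph, Sgcb, Slc2a1, Stat2, Tap2, Thbs1 and Thbs2. With median scaling and with the deposited scaled intensities, in this order, Cox6a1 changed sign to -0.0828 and -0.0421, Col3a1 to -0.0985 and -0.0578 and Hspb8 to -0.0894 and -0.0488. With median scaling Ddb1 changed sign to -0.0022 and Sqstm1 to -0.0225. These 5 genes did not pass the test with median scaling and are not among the 9 calls counted as ended by it. With 3 hearts a group and dim CTL arrays, differences in probes near background are limited to bounds.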
